A study of Mus musculus with 39 samples.

Results

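The 31 genes described here encode the contractile apparatus of smooth muscle and the muscle actins: 4 actins, the myosin motor and its regulators, thin filament proteins, intermediate filament and attachment proteins, calcium handling proteins, small heat shock proteins, transcription regulators and a kinase. They were listed by name, with earlier results of these data known, and all 31 were found among the 34574 named genes of the deposited tables. RNA was sequenced from 13 mice, 6 BALB/cJ and 7 C57BL/6J, both inbred strains. Each mouse gave a library of colon, one of ileum and one of duodenum/jejunum (taken as a single tissue), 39 libraries in all. No treatment or engineered allele is named, and sex, age, collection date and the depth of each gut wall sample (whole wall or mucosa) are not given in the sources used here. Levels are in TPM, a length-corrected share of the library's RNA, and differences between groups are on the log2(TPM + 1) scale. All 31 genes had at least 1 TPM in at least 6 libraries in each comparison and were tested. In the duodenum/jejunum Acta1 and Actc1 met this through the strain where they were high. Their medians in the other strain were 0.750 TPM (Acta1, BALB/cJ) and 0.832 TPM (Actc1, C57BL/6J).

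Smooth muscle contracts when calcium and calmodulin activate myosin light chain kinase, which phosphorylates the regulatory light chain of the motor, and it relaxes when myosin phosphatase removes that phosphate. Its thin filaments are built mainly from the alpha (Acta2) and gamma (Actg2) smooth muscle actins. Acta1 encodes the alpha actin of skeletal muscle and Actc1 that of heart, and both can be expressed in smooth muscle. In the intestine most of these genes mark the circular and longitudinal muscle coats, the muscularis mucosae and the walls of vessels. Flna, Tpm1, Cald1 and Csrp1 are more broadly expressed.

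The tissue labels were checked against regional epithelial genes, and 2 libraries went against them, both from C57BL/6J mouse 2. The library labelled ileum had 22.1 TPM of Fabp6, the ileal bile acid binding protein, while its highest level in that group was 8189 TPM. The library labelled duodenum/jejunum had 6111 TPM of Fabp6, against a group median of 8.07 TPM. Tmprss15, the enteropeptidase of the proximal small intestine, was at 51.2 TPM in the library labelled ileum, where the group median was 0.0253 TPM. Both libraries were kept under their labels. Values without that mouse are given beside the results it moved most, and every call of a member that changed without it is named with its result. The defining smooth muscle genes Myh11 and Acta2 were present in every library, at no less than 29.6 TPM and 41.8 TPM.

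The sequences of Acta1 and Actc1 are shown because the strain differences turn on these close relatives, whose reads a counting program could exchange. Their coding sequences, from the GENCODE annotation of GRCm38, were each 1131 bases long and identical at 976 aligned positions (86.3%). The first 60 coding bases follow, with the 9 bases that differ between them in capitals.
Acta1: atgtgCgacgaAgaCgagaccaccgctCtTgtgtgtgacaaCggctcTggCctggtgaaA
Actc1: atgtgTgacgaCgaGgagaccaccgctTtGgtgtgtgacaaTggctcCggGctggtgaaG
Of all stretches of 31 bases in the annotated transcripts of each gene, 95.9% for Acta1 and 99.2% for Actc1 occurred in no other gene. For Acta2 the share was 98.6% and for Actg2 98.8%. The gene sharing most such stretches with Acta1 was Actb, the cytoplasmic beta actin.

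Acta1 lies on chromosome 8 (chr8:123891769-123894751) and Actc1 on chromosome 2 (chr2:114047282-114053548), both on the minus strand of GRCm38. Their promoters are printed because serum response factor, the main regulator of muscle actin genes, binds the CArG box, here searched on both strands as CC, then 6 bases that are each A or T, then GG. RefSeq promoter windows (GRCm38.p6, from 250 bases before to 50 after the start) were found for 27 of the 31 genes, and 4 of those 27 held the box. It occurred in 1.81% of the 27025 genes with a window. The start is that of RefSeq, which lies within the span GENCODE gives for Actc1 (that span includes a longer transcript) and upstream of the span it gives for Acta1. The last 100 bases before the start are given for both genes, with the box in capitals, at chr2:114052876-114052975 (Actc1, minus strand) and chr8:123894776-123894875 (Acta1, minus strand).
Actc1: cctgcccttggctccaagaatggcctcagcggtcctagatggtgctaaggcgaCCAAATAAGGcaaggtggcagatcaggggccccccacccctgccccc
Acta1: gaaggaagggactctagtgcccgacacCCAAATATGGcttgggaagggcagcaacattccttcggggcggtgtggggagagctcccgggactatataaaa
The box began 47 bases before the start in Actc1 and 73 bases before it in Acta1. The other two genes with a match were Myl9, at 161 bases before the start, and Ldb3, at 35 bases, shown with 10 bases on either side.
Myl9: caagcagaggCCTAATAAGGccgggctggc
Ldb3: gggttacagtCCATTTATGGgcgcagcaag
The matches are at chr2:156775293-156775322 (Myl9, plus strand) and chr14:34588697-34588726 (Ldb3, minus strand). These are reference sequences, and strain differences in them were not analysed here. Tagln, Actg2, Myh11 and Myocd had no window in the table.

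The first comparison asked which of these genes differ between BALB/cJ and C57BL/6J within each tissue. Acta1 and Actc1 differed in opposite directions in all 3 tissues. Acta1 was higher in C57BL/6J and Actc1 higher in BALB/cJ, with no overlap between the strains. Of the other smooth muscle genes, 8 passed the test in the colon, 2 in the duodenum/jejunum and none in the ileum. Across all genes tested, 25.3%, 9.5% and 20.4% passed in these tissues, in the same order. The shares of all genes without overlap were 11.5%, 5.36% and 9.82%. The closest to Acta1 in the colon (-1.08) were Casq2 (-0.82) and Hspb6 (-0.69).

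For Acta1 in the colon, the BALB/cJ libraries ran from 2.37 to 5.70 TPM with a median of 4.17, and the C57BL/6J libraries from 7.75 to 14.3 TPM with a median of 9.31. In the ileum the BALB/cJ range was 0.773 to 2.93 TPM (median 1.65) and the C57BL/6J range 11.2 to 115 TPM (median 31.5). The 115 TPM belonged to C57BL/6J mouse 1, and the next highest library of that group had 46.4 TPM. In the duodenum/jejunum BALB/cJ ranged from 0.415 to 1.26 TPM (median 0.750) and C57BL/6J from 13.2 to 30.6 TPM (median 21.8). Every C57BL/6J library thus lay above every BALB/cJ library of the same tissue. By the ratio of mean TPM, C57BL/6J was 2.37-fold higher in colon, 22.9-fold in ileum and 28.5-fold in duodenum/jejunum. The last ratio rests on a BALB/cJ mean of 0.765 TPM. Without C57BL/6J mouse 1 the ileal ratio was 15.1-fold. In limma with Benjamini-Hochberg adjustment over all genes, the BALB/cJ minus C57BL/6J difference was -1.08 ± 0.17 (SE; adjusted p = 0.00024) in the colon. It was -3.50 ± 0.46 (adjusted p = 0.00010) in the ileum and -3.65 ± 0.19 (adjusted p = 1.9e-09) in the duodenum/jejunum.

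Actc1 showed the opposite order. In the colon BALB/cJ ran from 15.9 to 38.3 TPM (median 27.8) and C57BL/6J from 1.06 to 2.85 TPM (median 1.70). In the ileum the ranges were 16.9 to 44.2 TPM (median 23.7) and 0.345 to 2.38 TPM (median 1.83). In the duodenum/jejunum they were 4.63 to 16.6 TPM (median 8.77) and 0.619 to 2.78 TPM (median 0.832). The strains again did not overlap, and the C57BL/6J level was near 1 to 2 TPM everywhere. By mean TPM, BALB/cJ was higher by 14.4-fold (colon), 16.3-fold (ileum) and 9.02-fold (duodenum/jejunum). The limma differences were 3.27 ± 0.22 (SE; adjusted p = 4.0e-08), 3.38 ± 0.25 (adjusted p = 1.9e-07) and 2.32 ± 0.26 (adjusted p = 1.6e-05).

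**Figure D1:**
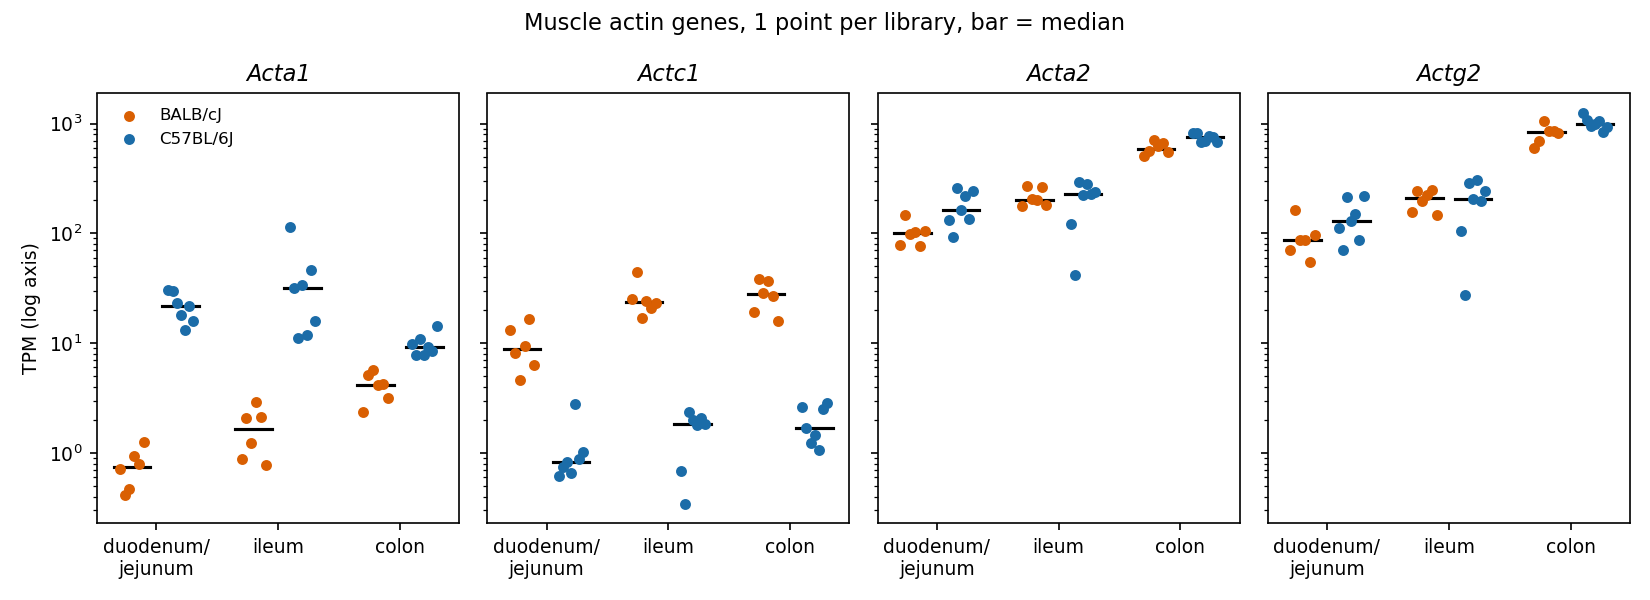
TPM (log axis) of the 4 muscle actin genes in each library, by tissue and strain; each point is 1 library and each bar a group median. Acta1 is higher in C57BL/6J and Actc1 higher in BALB/cJ without overlap in any tissue, while Acta2 and Actg2 overlap between strains and are highest in the colon.

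Without C57BL/6J mouse 2 the Acta1 differences were -1.13, -3.47 and -3.57 and the Actc1 differences 3.26, 3.23 and 2.29, in the same order of tissues. All 6 calls held under each pseudocount, filter, scaling, block and left-out mouse that was run. As background, BALB/c mice are known for a rearrangement at the Actc1 locus that lowers Actc1 RNA and raises Acta1 RNA in the heart. In these gut libraries both genes differed between the strains in the opposite direction. The locus was not analysed here, and the cause of the differences was not tested.

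The Acta1 strain difference itself depended on the tissue. It was negative in all 3 tissues and smallest in size in the colon. The colon difference minus the ileum difference was 2.41 ± 0.45 on the log2 scale (adjusted p = 0.00052, limma over all 39 libraries), and minus the duodenum/jejunum difference 2.57 ± 0.45 (adjusted p = 0.00017). Across all genes 4.08% and 5.59% passed these tests of differing strain effects, and Acta1 was the 1 gene of the 31 to pass either. With the mouse as a random block Pln, the calcium pump inhibitor, passed the first test as well. Without mouse 2 the values were 2.34 (adjusted p = 0.0017) and 2.44 (adjusted p = 0.00077). Within BALB/cJ, Acta1 was higher in the colon than in the ileum by 0.97 ± 0.20 (adjusted p = 0.00062). Within C57BL/6J it was lower in the colon than in the ileum by -1.45 ± 0.37 (adjusted p = 0.0017; -1.37 without mouse 2, adjusted p = 0.0079), and lower than in the duodenum/jejunum by -1.05 ± 0.37 (adjusted p = 0.016). The last call was lost without mouse 2 (adjusted p = 0.059). For Actc1 the strain effect in the ileum exceeded that in the duodenum/jejunum by 1.05 ± 0.36, which did not pass (adjusted p = 0.075).

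As a share of the summed TPM of the 4 actins, Acta1 made up 1.87% to 33.5% in the C57BL/6J ileum and 3.30% to 15.5% in the C57BL/6J duodenum/jejunum. In BALB/cJ it reached at most 0.652% in any library. Actc1 made up 3.90% to 7.87% in the BALB/cJ ileum and 2.42% to 11.2% in the BALB/cJ duodenum/jejunum, against at most 0.726% in C57BL/6J. The rest was Acta2 and Actg2. The ratio of Actg2 to Acta2 was 1.34 ± 0.13 (SD, n = 6) in the BALB/cJ colon and 1.36 ± 0.13 (SD, n = 7) in the C57BL/6J colon. In the small intestine its group means ran from 0.776 in the C57BL/6J duodenum/jejunum to 0.933 in the BALB/cJ ileum.

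Genes of striated muscle were read beside Acta1 and Actc1. Myh4, the fast skeletal myosin, was at 0 in 35 of the 39 libraries, and Myh1, a second fast skeletal myosin, did not exceed 0.623 TPM. Myh6, the atrial myosin, did not exceed 0.467 TPM, and Nppa, the atrial natriuretic peptide, 0.531 TPM. Ckm, the muscle creatine kinase, was present in all libraries, with a median of 12.3 TPM in the C57BL/6J ileum and 11.9 TPM in the BALB/cJ ileum. Of the 4 tested genes of the skeletal list (7 listed, Acta1 among them), 1 was higher and 1 lower in BALB/cJ in both the ileum and the duodenum/jejunum, namely Tnni2, the fast skeletal troponin I, and Acta1. The summed skeletal list ran from 18.4 to 36.7 TPM in the BALB/cJ ileum and from 30.5 to 124 TPM in the C57BL/6J ileum, Acta1 included. Of the 124 TPM, from C57BL/6J mouse 1, Acta1 made up 115 TPM. These sums therefore cannot show whether the other skeletal genes differed between the strains. The cardiac list of 5 genes ran from 8.36 to 13.1 TPM in the BALB/cJ ileum and from 14.4 to 36.5 TPM in the C57BL/6J ileum. Myl7, the atrial regulatory light chain, was the cardiac gene that passed. In BALB/cJ it was lower in the ileum by -1.64 ± 0.28 (limma, adjusted p = 0.0011) and in the duodenum/jejunum by -1.31 ± 0.19 (adjusted p = 0.00027), and higher in the colon by 0.90 ± 0.13 (adjusted p = 0.00012). The part of other cell types in the actin differences was not tested beyond these values.

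In the colon, 1 member was higher in BALB/cJ (Actc1) and 9 were lower, so 10 of 31 passed against 25.3% of the 15769 genes tested; by direction the background was 14.5% higher and 10.8% lower. The median difference over the members was -0.16, against 0.02 over all genes, and 27 of 31 were below 0. Besides Acta1, the lower genes spanned several roles. They were the smooth muscle actin Acta2, the myosin heavy chain Myh11, the tropomyosin Tpm1, the actin-binding protein Smtn, the intermediate filament protein Synm, the calcium store protein Casq2, the small heat shock protein Hspb6 and the kinase Dmpk. Strains did not overlap for 3 members, Acta1, Actc1 and Tpm1, where 11.5% of all genes tested did not overlap.

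Most of these colonic differences were small. Acta2 ran from 503 to 712 TPM in BALB/cJ (median 590) and from 675 to 818 TPM in C57BL/6J (median 752), a difference of -0.31 ± 0.08 (adjusted p = 0.012). Myh11 ran from 327 to 449 TPM (median 346) and from 394 to 457 TPM (median 446), a difference of -0.24 ± 0.07 (adjusted p = 0.021). Both genes overlapped between strains, and the Myh11 call was lost without BALB/cJ mouse 1 or mouse 4 (adjusted p = 0.051 in both cases). Tpm1, which lies along the actin filament, ran from 653 to 772 TPM and from 781 to 950 TPM, without overlap (-0.26 ± 0.06, adjusted p = 0.0035). Synm differed by -0.28 ± 0.08 (adjusted p = 0.025), Smtn by -0.24 ± 0.08 (adjusted p = 0.032) and Dmpk by -0.28 ± 0.09 (adjusted p = 0.045). The Smtn call was lost under 11 alternatives and the Dmpk call under 12, both of them without C57BL/6J mouse 2 (adjusted p = 0.058 and 0.0504).

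Casq2 and Hspb6 differed more. Casq2, which buffers calcium in the sarcoplasmic reticulum, ran from 3.38 to 7.13 TPM in the BALB/cJ colon (median 4.55) and from 6.13 to 13.2 TPM in C57BL/6J (median 9.03). The difference was -0.82 ± 0.15 (adjusted p = 0.0012), and the ranges overlapped between 6.13 and 7.13 TPM. Hspb6, which associates with relaxation of smooth muscle when phosphorylated, had medians of 6.14 and 11.1 TPM and differed by -0.69 ± 0.15 (adjusted p = 0.0042). Actg2, the most abundant of the 4 muscle actins in the colon, had medians of 833 and 993 TPM and did not pass (-0.33 ± 0.12, adjusted p = 0.058). Tagln, Cnn1, Myl9, Tpm2, Cald1 and Flna, all abundant, had differences between -0.13 and -0.02 that did not pass.

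In the ileum, Actc1 (higher in BALB/cJ) and Acta1 (lower) were the 2 of 31 that passed, against 20.4% of the 15537 genes tested, of which 17.2% were higher and 3.17% lower. The median member difference was 0.32, against 0.17 over all genes, and 25 members were above 0. Dividing by size factors (median of ratios) took the median of all genes to -0.0018 and that of the members to 0.13, and it split the calls over all genes into 942 higher and 882 lower instead of 2677 and 492. The 2 member calls kept their direction. The same 2 genes were the members without overlap, against 9.82% of all genes. The standard errors were wide, and the summed member level in C57BL/6J ran from 909 TPM in mouse 2 to 3521 TPM. Without mouse 2 the members' median difference was 0.07. The standard error of Myh11 was then 0.22, against 0.08 in the colon without that mouse.

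In the duodenum/jejunum, 1 member was higher in BALB/cJ (Actc1) and 3 were lower (Acta1, Casq2 and Hspb6), against 9.5% of the 15306 genes tested, 4.7% higher and 4.8% lower. The median difference was -0.44, against 0.01 over all genes, and 28 of 31 were below 0. Casq2 ran from 1.30 to 4.06 TPM in BALB/cJ and from 3.10 to 6.16 TPM in C57BL/6J (-0.88 ± 0.19, adjusted p = 0.0073). Hspb6 had medians of 3.63 and 7.88 TPM (-0.94 ± 0.27, adjusted p = 0.038). The Hspb6 call was lost under 11 alternatives, with adjusted p up to 0.11 in limma. Acta2 had medians of 102 and 163 TPM and missed the threshold (-0.76 ± 0.23, adjusted p = 0.052). Acta1 and Actc1 were the members without overlap, against 5.36% of all genes. Without mouse 2 the lower genes were 5, with Acta2 (-0.90, adjusted p = 0.010), Tpm1 (-0.50, adjusted p = 0.014) and Csrp1 (-0.63, adjusted p = 0.030) passing and Hspb6 not (adjusted p = 0.061).

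**Figure D2:**
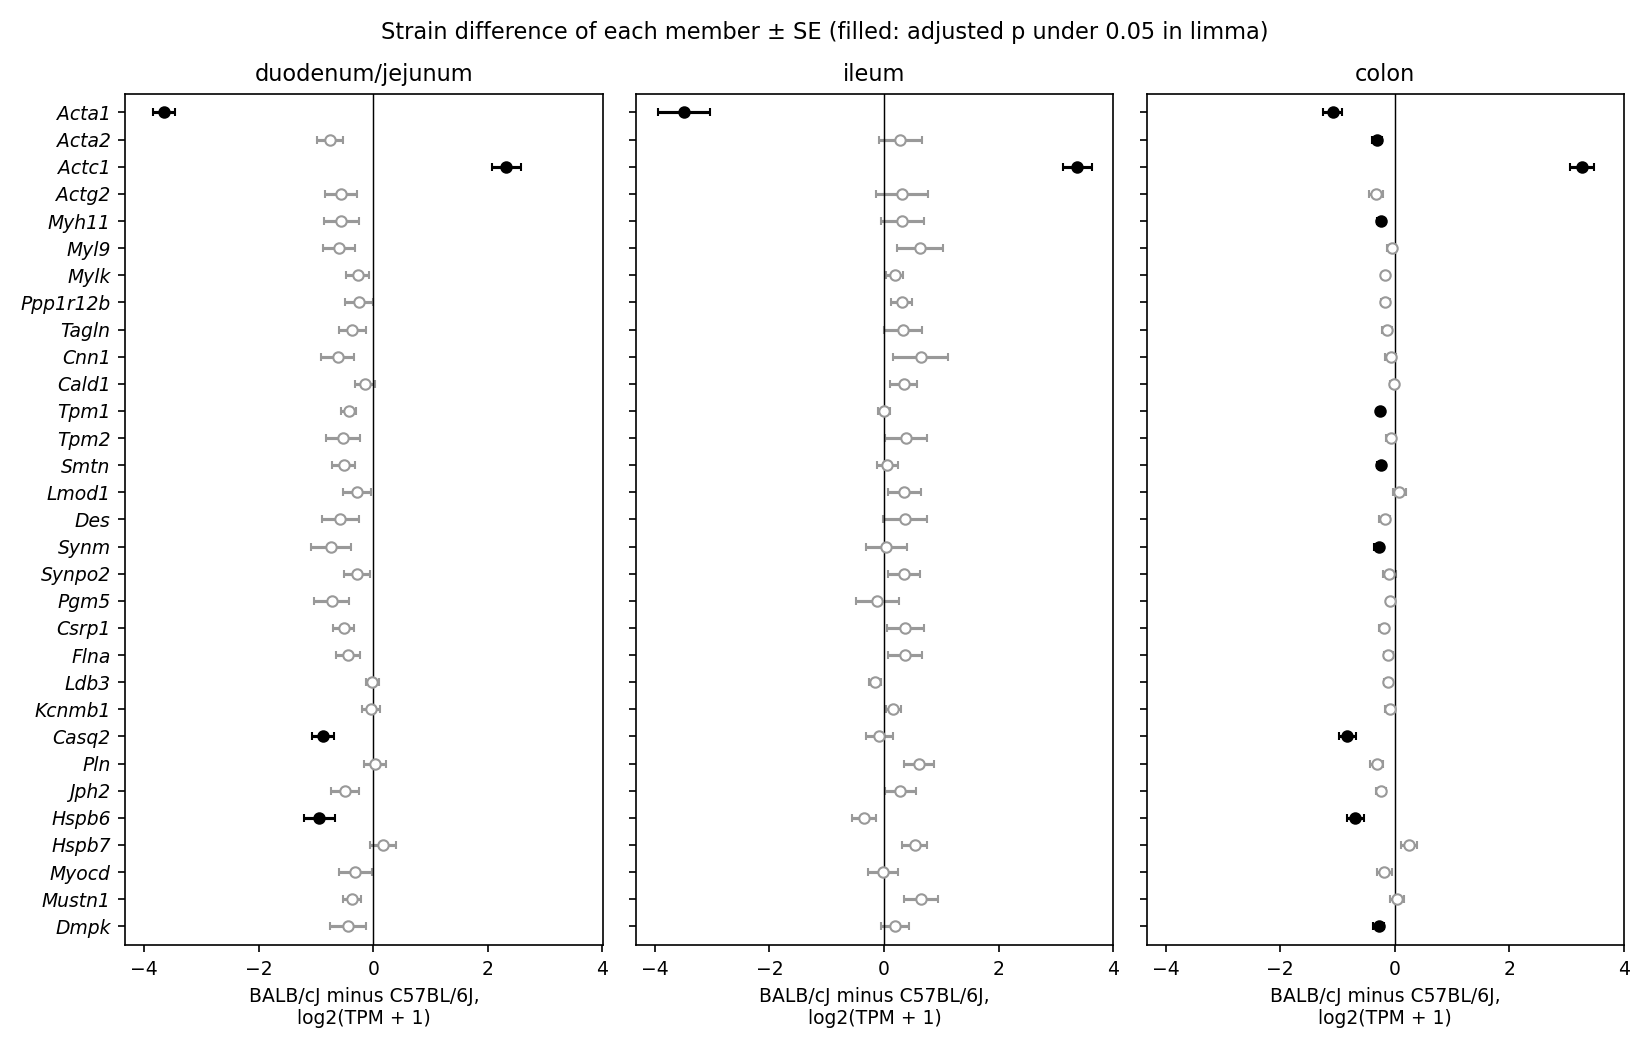
Difference of log2(TPM + 1), BALB/cJ minus C57BL/6J, for each of the 31 genes in the 3 tissues; points are limma estimates, bars are SE and filled points have adjusted p under 0.05. Acta1 (-3.65 to -1.08) and Actc1 (2.32 to 3.38) stand at the 2 ends in every tissue, and most other members lie below 0 in the colon and the duodenum/jejunum and above 0 in the ileum.

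In bulk tissue, fewer muscle cells and less RNA per muscle cell cannot be told apart, and the amount of muscle in each sample may differ. The members' summed level was 7357 ± 863 TPM (SD, n = 6) in the BALB/cJ colon and 8279 ± 622 TPM (SD, n = 7) in the C57BL/6J colon. In the ileum it was 2762 ± 480 and 2490 ± 909 TPM, and in the duodenum/jejunum it was 1505 ± 446 and 2153 ± 685 TPM. The strain ranges of the sum overlapped in all 3 tissues. Markers of other cell types were read against the shares of all genes called in the same direction, 14.5% higher and 10.8% lower in the colon, 17.2% higher in the ileum and 4.8% lower in the duodenum/jejunum. The TPM ranges given with them are sums over all genes of each list. Of 6 fibroblast markers, 4 were higher in the BALB/cJ colon, with summed levels of 1256 to 2238 TPM against 915 to 1580 TPM in C57BL/6J. In the ileum 4 of the 6 were also higher, at 836 to 1505 TPM against 147 to 664 TPM. Of 5 enteric neuron markers, 2 were lower in the BALB/cJ colon (summed range 14.9 to 26.1 TPM against 17.8 to 40.0 TPM). Of 4 adipocyte markers 3 were higher there (71.1 to 195 TPM against 31.9 to 66.4 TPM). Of 5 pericyte markers 1 was higher and 1 lower (131 to 193 TPM against 156 to 202 TPM), and of 5 epithelial markers 1 was lower (4854 to 5282 TPM against 5175 to 5372 TPM). Also in the colon, Ano1 was higher, 1 of 3 markers of interstitial cells of Cajal, the pacemaker cells. The 3 summed to 228 to 281 TPM against 201 to 235 TPM. The endothelial Kdr, 1 of 4, was higher there too (list sum 49.9 to 74.4 TPM against 41.5 to 60.1 TPM). Sox10, 1 of 4 glial markers, was lower (list sum 6.83 to 10.1 TPM against 9.07 to 13.4 TPM). In the ileum 3 of 4 endothelial markers were higher in BALB/cJ (56.6 to 125 TPM against 36.5 to 60.2 TPM), as were 2 of 5 pericyte markers (110 to 175 TPM against 38.6 to 132 TPM). Etv1, 1 of 3 markers of interstitial cells of Cajal, was higher there (list sum 26.3 to 64.8 TPM against 12.8 to 43.4 TPM). So was Fabp4, 1 of 4 adipocyte markers (list sum 79.5 to 352 TPM against 68.2 to 169 TPM). For the duodenum/jejunum 1 of 4 neuronal markers was lower (5.50 to 12.4 TPM against 6.67 to 22.4 TPM). Their part in the results was not tested.

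**Figure D3:**
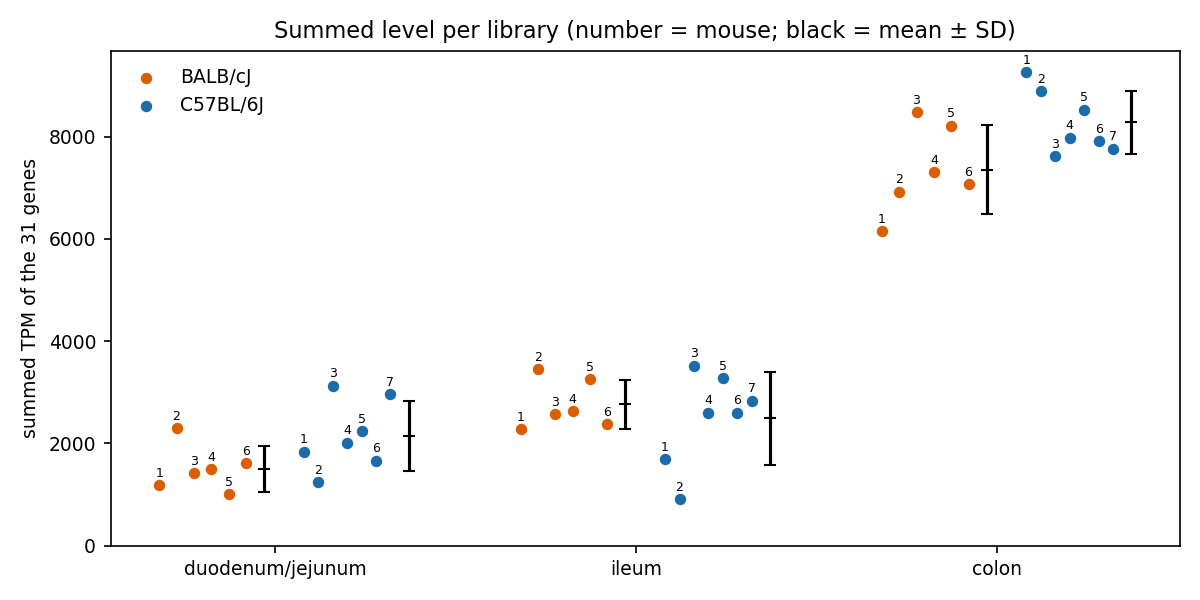
Summed TPM of the 31 genes in each library, by tissue and strain; numbers are mice and black bars are mean ± SD. Colon libraries sit between 6150 and 9263 TPM, above all small intestinal libraries, and the C57BL/6J library labelled ileum of mouse 2 is lowest at 909 TPM.

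To read each gene against the amount of muscle RNA, the strain difference was also fitted on the difference between each gene and Myh11, over 30 members. In the colon 7 passed, against 46% of all genes, with 42.9% of all genes higher in BALB/cJ and 3.09% lower. On this scale the median was 0.26 over all genes and 0.08 over the members, so a value near 0.26 is that of a typical gene. Those higher relative to Myh11 were Actc1 (3.51 ± 0.23), Hspb7 (0.49 ± 0.11, adjusted p = 0.0034), the actin nucleator Lmod1 (0.33 ± 0.10, adjusted p = 0.017) and the actin-binding protein Cald1 (0.22 ± 0.07, adjusted p = 0.018). Those lower were Acta1 (-0.84 ± 0.18, adjusted p = 0.0018), Casq2 (-0.58 ± 0.14, adjusted p = 0.0041) and Hspb6 (-0.44 ± 0.16, adjusted p = 0.033). With Des, the muscle intermediate filament desmin, as the reference, 4 passed, and Hspb6, Lmod1 and Cald1 did not. Counting that fit, the Hspb6 call was lost under 7 alternatives, the Cald1 call under 3 and the Lmod1 call under 2. Relative to Myh11 and without mouse 2, the light chain Myl9 passed too (0.22, adjusted p = 0.041). Acta2, Smtn, Synm, Tpm1 and Dmpk, called without the reference, had values between -0.06 and 0.00 relative to Myh11. In the ileum Actc1 (3.06 ± 0.38) and Acta1 (-3.82 ± 0.54) passed, against 1.74% of all genes. Without mouse 2 these were 3.24 and -3.46, and the count over all genes went from 271 to 586. For the duodenum/jejunum the same 2 passed (2.89 ± 0.38 and -3.09 ± 0.37), against 5.27%, and the median over all genes was 0.57. Without mouse 2, Hspb7 (0.81, adjusted p = 0.038) and Pln (0.72, adjusted p = 0.0499) passed there as well. The count over all genes then went from 806 to 6207 of 15213 tested, with a median of 0.73. Hspb7 and Pln were thus near the value of a typical gene.

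The second comparison asked how the genes vary along the gut within a strain. Nearly all were highest in the colon. In BALB/cJ, 26 were higher in the colon than in the ileum and 1 was lower, against 30.5% and 16.2% of the 16204 genes tested. Against the duodenum/jejunum 30 were higher and 1 lower, with a background of 50% and 14.6%. In C57BL/6J, 28 were higher and 2 lower in the colon than in the ileum (background 47.8% and 15.6% of 16237 genes). The same counts, 28 and 2, were found against the duodenum/jejunum (background 51% and 15.4%). The members' median colon minus ileum difference was 1.07 in BALB/cJ and 1.59 in C57BL/6J, against 0.11 and 0.25 over all genes. Against the duodenum/jejunum the medians were 1.90 and 1.65, against 0.31 and 0.29. Without mouse 2 the C57BL/6J medians were 1.37 and 1.51, with 28 higher and 2 lower against the ileum and 27 and 1 against the duodenum/jejunum, where the calls of Acta1 and Actc1 (adjusted p = 0.056) were lost. With size factors the share of higher calls over all genes fell to near 50% in these 4 comparisons (from 65.3%, 77.4%, 75.4% and 76.8% to 51.7%, 50.9%, 51.7% and 50.5%). The higher members then numbered 26, 28, 27 and 26.

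Cnn1, the calponin that restrains the actin-activated myosin, had the steepest gradient of the 31 in both strains. From colon to ileum to duodenum/jejunum its medians were 673, 127 and 49.9 TPM in BALB/cJ and 675, 104 and 76.3 TPM in C57BL/6J. The colon exceeded the ileum by 2.43 ± 0.22 in BALB/cJ (adjusted p = 2.1e-08) and by 3.13 ± 0.40 in C57BL/6J (adjusted p = 7.7e-07), or 2.66 ± 0.21 without mouse 2. The actin cross-linker Tagln (2.07 ± 0.17 and 2.54 ± 0.29), Actg2 (2.01 ± 0.21 and 2.65 ± 0.39) and Des (1.83 ± 0.22 and 2.37 ± 0.35) followed. A shallower gradient was seen for Mylk, the light chain kinase (0.16 ± 0.14, adjusted p = 0.39, and 0.51 ± 0.16, adjusted p = 0.0083). The Mylk call in C57BL/6J was lost with size factors (adjusted p = 0.16). Kcnmb1, the beta subunit of the calcium-activated potassium channel, was higher in the colon by 0.51 ± 0.14 and 0.76 ± 0.12. Myocd, the coactivator of serum response factor that drives smooth muscle genes, was higher by 0.78 ± 0.28 and 0.94 ± 0.21.

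Ldb3 ran against the gradient. It encodes a protein of the Z disc, the plane that anchors thin filaments in striated muscle. In the colon it lay between 5.26 and 6.94 TPM in BALB/cJ and between 5.97 and 7.35 TPM in C57BL/6J. In the ileum the ranges were 20.6 to 29.4 and 25.4 to 36.03 TPM, and in the duodenum/jejunum 23.2 to 32.4 and 22.4 to 33.3 TPM. No small intestinal library reached down to a colonic one. The colon minus ileum difference was -1.99 ± 0.10 in BALB/cJ (adjusted p = 3.3e-12) and -2.03 ± 0.09 in C57BL/6J (adjusted p = 3.3e-14). The strains did not differ for Ldb3 past the threshold in any tissue, with differences of -0.12, -0.16 and -0.02. The second member lower in the colon, in C57BL/6J, was Acta1, described above.

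Within the small intestine the strains gave different counts. In BALB/cJ, 27 of 31 were higher in the ileum than in the duodenum/jejunum, against 35.6% of all genes, with a median of 0.81 against 0.21. Mustn1, a small protein of the musculoskeletal system (1.26 ± 0.16), Cnn1 (1.35 ± 0.22) and Actc1 (1.36 ± 0.27) had the largest differences. With size factors 21 were higher. In C57BL/6J none of 31 passed in limma, against 9.32% of all genes. An unadjusted p under 0.05 was found for 0 of 31, against 3695 of the 16237 genes tested. The largest member difference was that of Acta1 (0.40 ± 0.37, adjusted p = 0.58), and the members' median was 0.11 against 0.04. Without mouse 2, Mustn1 alone passed (adjusted p = 0.018), the members' median was 0.24 against 0.06, and the count over all genes went from 1514 to 3664 of 16038 genes tested. The test of whether the strain difference changes between ileum and duodenum/jejunum was passed by no member in limma, against 3.92% of all genes. An unadjusted p under 0.05 was found there for 16 of 31, against 4130 of the 17126 genes tested. The members' median was 0.65 against 0.16. With the mouse as a random block the test was passed by 2 members, Mustn1 and Tpm1, while the count over all genes went from 672 to 1302. Without mouse 2 it was passed by 4, Myl9 (1.07), Mustn1 (0.76), Csrp1 (0.71) and Tpm1 (0.44), with adjusted p between 0.040 and 0.048. With the mouse as a block, which matches the 3 tissues of an animal, the colon against duodenum/jejunum call of Hspb6 in BALB/cJ and of Actc1 in C57BL/6J and the ileum against duodenum/jejunum call of Hspb7 in BALB/cJ were lost.

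**Figure D4:**
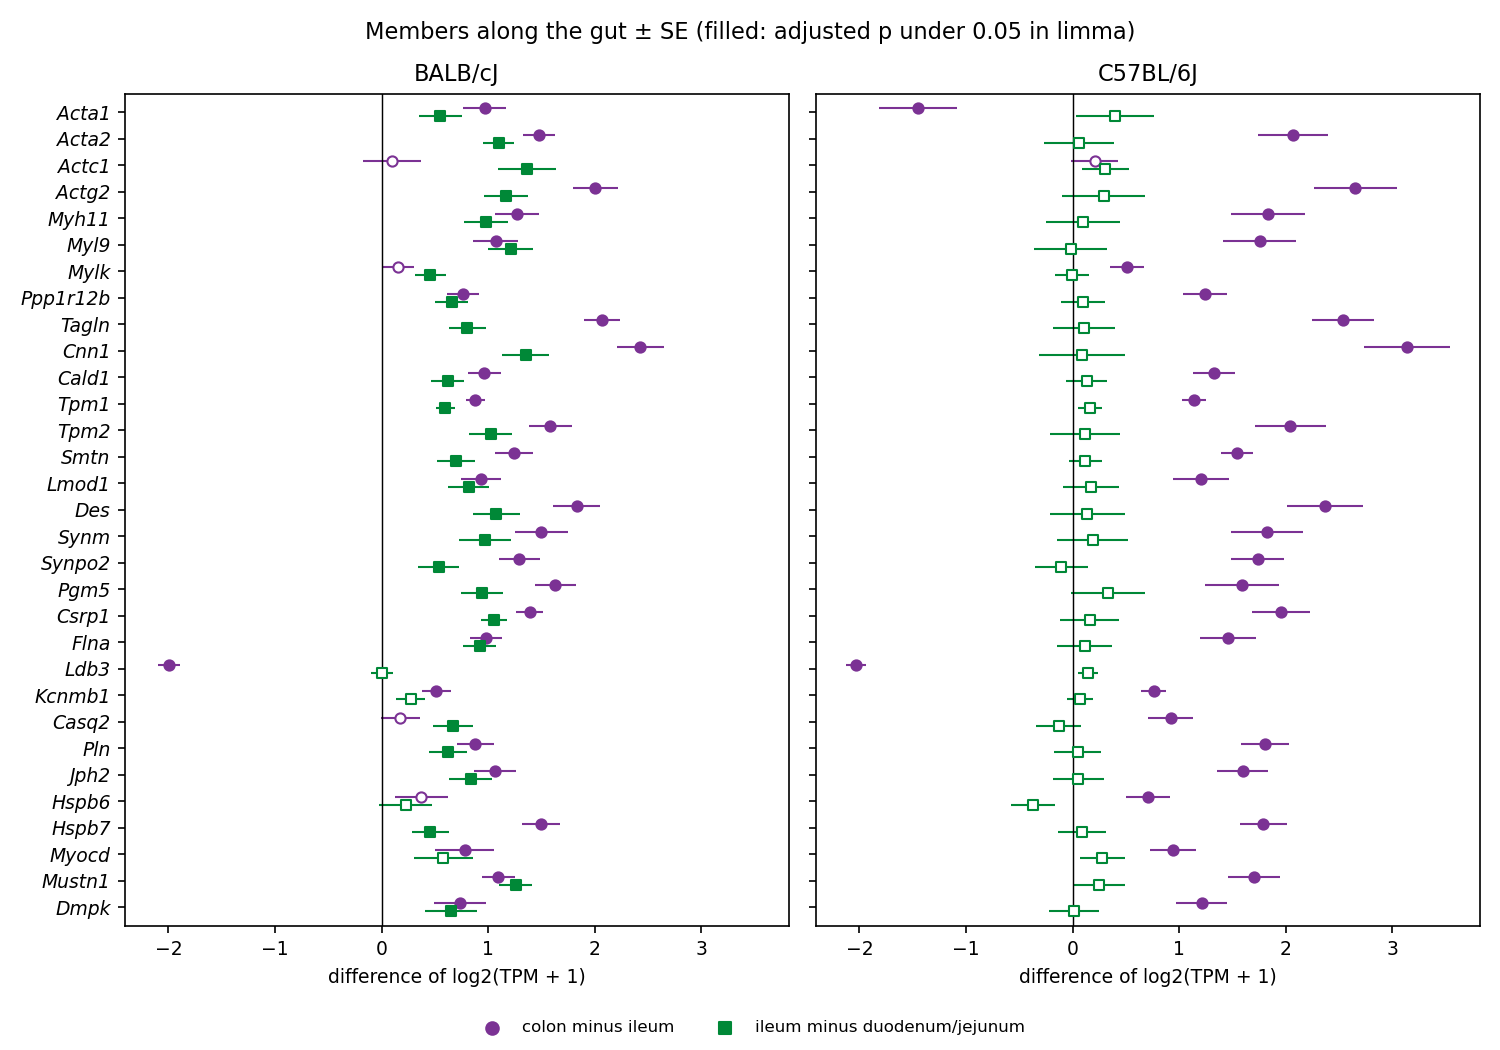
Differences of log2(TPM + 1) along the gut for each of the 31 genes within each strain; circles are colon minus ileum, squares ileum minus duodenum/jejunum, bars are SE and filled symbols have adjusted p under 0.05. Most circles lie right of 0 in both strains, Ldb3 lies near -2 in both, Acta1 is right of 0 in BALB/cJ and left of it in C57BL/6J, and the squares are filled for 27 genes in BALB/cJ and for none in C57BL/6J.

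Across the 13 mice of a tissue, most members followed Myh11 in the small intestine and fewer did in the colon. Pearson's r on log2(TPM + 1) exceeded 0.8 for 25 of 30 genes in the ileum, 20 in the duodenum/jejunum and 7 in the colon, with medians of 0.926, 0.948 and 0.618. Correlations with Myh11 were computed for these 30 genes only, so no share over all genes can be set beside the counts. A 2-sided permutation test with adjustment over the 30 genes passed for 28, 27 and 19. These counts include genes that ran against Myh11 over the pooled strains. They were Ldb3 in the ileum (r = -0.644, adjusted permutation p = 0.046) and Actc1 in the colon (r = -0.709, adjusted permutation p = 0.021). The permutations mixed the strains, so a strain difference in both genes can pass. Within BALB/cJ and C57BL/6J, colonic Actc1 had r = -0.031 and -0.401 (exact permutation p = 0.98 and 0.35). Colonic Acta1 passed too (r = 0.627, adjusted permutation p = 0.044), with r = 0.333 and -0.608 within the strains. All points share the library total, and both strains are pooled. The medians within BALB/cJ and within C57BL/6J were 0.864 and 0.982 for the ileum, 0.959 and 0.964 for the duodenum/jejunum, and 0.655 and 0.574 for the colon. Leaving out the 2 mice farthest from the Myh11 median left 13, 18 and 5 genes above 0.8, with medians of 0.779, 0.899 and 0.507. In the ileum those were C57BL/6J mice 1 and 2, the libraries with the lowest summed level. Des, for example, had r = 0.987 and Spearman's rho = 0.912 in the ileum (adjusted permutation p = 3.7e-05 and 0.00020) and r = 0.821 and rho = 0.852 in the colon (adjusted permutation p = 0.0025 and 0.0048). Without the 2 farthest mice r was 0.896 and 0.845.

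Acta1, Actc1, Ldb3, Hspb6 and Myocd did not exceed 0.8 in any tissue. The strains form separate clusters for Acta1 and Actc1, so these were read within a strain. Actc1 had r = 0.952 with Myh11 in the C57BL/6J ileum (exact permutation p = 0.0069, n = 7), at 0.345 to 2.38 TPM. Mice 1 and 2 were lowest for both genes there. In the other groups r of Actc1 ran from -0.553 to 0.417, and the lowest exact permutation p was 0.25. In the C57BL/6J ileum Acta1 had r = -0.516 with Myh11 (exact permutation p = 0.25, n = 7). Acta1 in C57BL/6J was also at r = -0.608 in the colon and r = -0.550 in the duodenum/jejunum, neither of which passed an exact permutation test (p = 0.14 and 0.20, n = 7). C57BL/6J mouse 1, with the highest ileal Acta1, had an ileal Acta1 to Myh11 ratio of 1.504, while the BALB/cJ ratio did not exceed 0.0221 in that tissue.

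**Figure D5:**
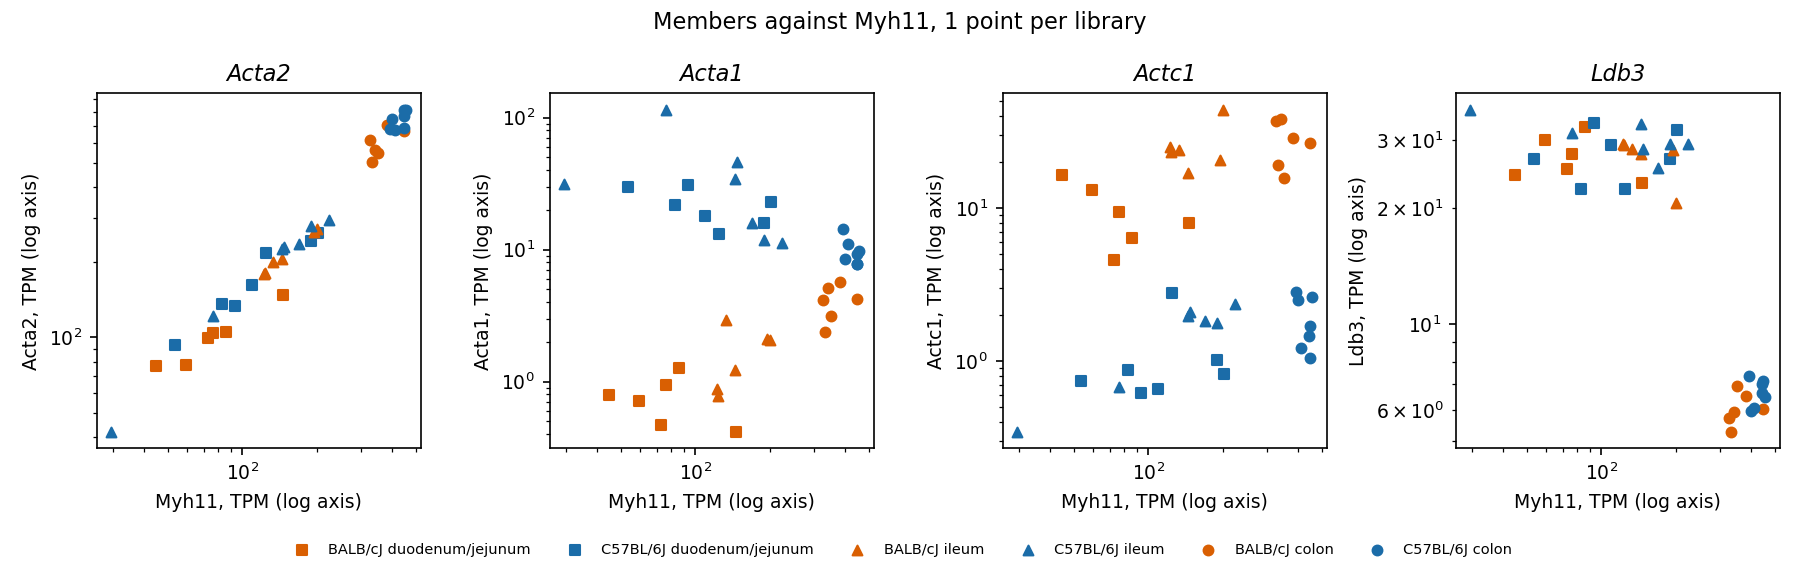
Acta2, Acta1, Actc1 and Ldb3 against Myh11, each in TPM on log axes, with 1 point per library, colour for strain and shape for tissue. Acta2 follows Myh11 along 1 line over both strains, Acta1 and Actc1 split by strain, and Ldb3 splits into colon (5.26 to 7.35 TPM) and small intestine (20.6 to 36.03 TPM).

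The genes that control contraction were read from a list of 30, of which 29 were found. In the colon 28 were tested, and 3 were higher and 5 lower in BALB/cJ, with a median of -0.04 against 0.02 over all genes, where 14.5% were higher and 10.8% lower. Those with the smallest adjusted p were Rock2, the kinase that inhibits myosin phosphatase (0.27 ± 0.06, adjusted p = 0.0026), Gucy1a3, a subunit of the nitric oxide receptor guanylate cyclase (0.40 ± 0.09, adjusted p = 0.0050), and Ppp1cb, the catalytic subunit of myosin phosphatase (-0.13 ± 0.04, adjusted p = 0.016). In the ileum 2 of 27 were higher and none lower (17.2% and 3.17% of all genes), namely Gucy1b3, the partner cyclase subunit (0.93 ± 0.24, adjusted p = 0.015), and Rock2 (0.30 ± 0.08, adjusted p = 0.018). In the duodenum/jejunum none of 26 passed in limma, against 9.5% of all genes. Of these 26, 1 had an unadjusted p under 0.05, against 3219 of the 15306 genes tested.

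Of 26 listed genes of the muscle membrane and its adhesions, 24 were found. In the colon 1 of 24 was higher in BALB/cJ and 4 were lower, beside the same 14.5% and 10.8% of all genes. Sgcd, the delta sarcoglycan that stabilises the muscle membrane, was lower by -0.49 ± 0.08 (adjusted p = 0.00040), from a mean of 11.2 TPM in C57BL/6J to 7.73 TPM in BALB/cJ. The LIM proteins Pdlim3 (-0.34 ± 0.07, adjusted p = 0.0017) and Pdlim7 (-0.32 ± 0.07, adjusted p = 0.0042) were lower too. In the ileum 1 of 23 passed, against 20.4% of all genes, the integrin-linked kinase Ilk (0.45 ± 0.13, adjusted p = 0.027). Those lower in the duodenum/jejunum were 2 of 23, against 4.8% of all genes, Sgcd (-0.68 ± 0.15, adjusted p = 0.0067) and the adhesion scaffold Pxn (-0.39 ± 0.11, adjusted p = 0.038).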

How the data were processed

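The deposited tables hold log2(TPM + 1) values per gene and library, 1 table per tissue, per the labels and the values; TPM was quantified with kallisto 0.44.0 against GRCm38, per the submitters' processing notes. Total RNA was depleted of ribosomal RNA, per the labels' protocols. Read counts are not in these values, so the depth is unknown. Each library's TPM of named genes summed to between 978462 and 994059, so libraries carry their own scale; 26 entries named by dates were left out (at most 0.24% of TPM).

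Strain, tissue and difference-of-strain-effect comparisons used limma 3.58.1 (R 4.3.3) with a mean-variance trend on log2(TPM + 1), a pseudocount of 1, genes at 1 TPM or more in at least 6 libraries, and Benjamini-Hochberg adjustment over all genes tested; a call is an adjusted p under 0.05. No block was used. Alternatives were a pseudocount of 0.1, no filter, median-of-ratios size factors, Des as reference, a mouse block and each mouse left out. Samples are separate animals per strain; the 3 tissues of a strain and number are 1 animal, as the labels give it, and deviations of same-animal libraries correlated with medians of 0.0924 to 0.249 against -0.0571 to -0.00838 for different animals. The fit was tested on simulated data. The naming rule was all 31 members, plus up to 3 called genes with the smallest adjusted p per pathway list and strain comparison; other-cell markers come from fixed lists, of whose 117 genes 114 were matched together with the pathway lists. Members and lists were chosen with earlier results of these data known. Correlations used 100000 permutations. Sequences are from GENCODE M21 and RefSeq.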

Additional observations from a re-analysis of the deposited data

Results flagged for a closer look

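The strain difference of Acta1 was smaller in size in the colon, by 2.41 on the log2 scale against the ileum and by 2.57 against the duodenum/jejunum (limma, values and adjusted p in the report).

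Among 186 groups of 6 or 7 libraries (31 genes, 3 tissues, 2 strains), 12 had a library whose gap to the nearest other library passed Dixon's 95% limit, and chance alone gives about 1 in 20 groups. From C57BL/6J mouse 2, in the library labelled ileum, came the lowest Cnn1 (11.5 TPM), Csrp1 (26.9 TPM) and Mustn1 (2.06 TPM). From BALB/cJ mouse 2 came the highest Cald1 in the ileum (56.0 TPM) and in the duodenum/jejunum (41.7 TPM), the highest Hspb6 in the duodenum/jejunum (10.3 TPM) and the lowest Ldb3 in the ileum (20.6 TPM). From BALB/cJ mouse 1 came the lowest Synpo2 (44.1 TPM) and Kcnmb1 (3.11 TPM) of the colon. The others were the highest Smtn in the BALB/cJ colon (mouse 5, 119 TPM), the lowest Pln in the C57BL/6J colon (mouse 3, 16.5 TPM) and the highest Actc1 in the C57BL/6J duodenum/jejunum (mouse 5, 2.78 TPM). That Actc1 value is below the lowest BALB/cJ library of the tissue, at 4.63 TPM.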

How the results depend on the processing

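No member that passed in limma changed direction under any alternative. Counts of members that passed moved as follows. In the colon strain comparison the count of 10 ranged from 6 to 14 over the fits that left out 1 mouse, with 6 without BALB/cJ mouse 1. Relative to Myh11 in the colon, 7 became 4 with Des as reference and ranged from 6 to 9. In the duodenum/jejunum 4 became 8 with size factors (7 of them lower in BALB/cJ) and ranged from 3 to 6, and relative to Myh11 2 ranged from 2 to 4, with 4 without C57BL/6J mouse 2. The ileum gave 2 in every fit. For ileum against duodenum/jejunum in C57BL/6J, 0 became 1 without mouse 2. For the strain effect in colon against ileum, 1 became 2 with the mouse as a random replicate block (adding Pln) and ranged from 1 to 2, with 2 without C57BL/6J mouse 3; in ileum against duodenum/jejunum, 0 became 2 with that block (Mustn1 and Tpm1) and ranged from 0 to 4, with 4 without C57BL/6J mouse 2 and 1 without mouse 3. Summed levels without the broadly expressed Flna, Tpm1, Cald1 and Csrp1 were 5775 and 6473 TPM in the colon (BALB/cJ, C57BL/6J), 1970 and 1760 in the ileum, and 1035 and 1512 in the duodenum/jejunum. Same-numbered mice of the 2 strains are different animals, and their deviations correlated with medians of -0.0706 to 0.000465; with the number as a replicate block 7, 2 and 3 members passed in colon, ileum and duodenum/jejunum, and Acta2 in the colon did not (adjusted p = 0.062). With the mouse as a replicate block in the tissue comparisons the counts were 27, 30 and 26 in BALB/cJ and 30, 29 and 0 in C57BL/6J, and no call changed other than those named in the report. With all mice kept, counts over all genes moved by more than 1.5 times in these cases: relative to Myh11 in the colon 7258 to 3115 with Des; ileum strain 3169 to 1824 with size factors and 929 with the number block; relative to Myh11 in the duodenum/jejunum 806 to 355 with that block; ileum against duodenum/jejunum strain effects 672 to 391 without a filter, 120 with size factors and 1302 with the random block. With 1 mouse left out they moved by as much in 5 comparisons: ileum strain 3169 to 1948 (without BALB/cJ mouse 5); relative to Myh11 in the ileum 271 to 174, 176 (BALB/cJ mouse 3 or 5) and 586 (C57BL/6J mouse 2); relative to Myh11 in the duodenum/jejunum 806 to 5141 (BALB/cJ mouse 2) and 6207 (C57BL/6J mouse 2); ileum against duodenum/jejunum in C57BL/6J 1514 to 3664 (mouse 2) and to 587 to 1009 (each other mouse); ileum against duodenum/jejunum strain effects 672 to 188 to 300 (without BALB/cJ mouse 1, 2, 3, 5 or 6 or C57BL/6J mouse 1, 5 or 7) and 1017 (C57BL/6J mouse 3). The cause of these shifts was not tested. Depth is unknown, which limits what can be said of members near 1 TPM, such as Actc1 in C57BL/6J and Acta1 in BALB/cJ.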
